A study of Mus musculus with 9 samples.

Results

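The mitochondrial ribosomal protein genes were examined in neutrophils sorted from mouse bone marrow. They were taken as every listed gene whose symbol starts with Mrpl or Mrps followed by a digit, without pseudogene symbols, a rule that used no measured value. This gave 54 genes of the 7197 listed, 39 named Mrpl and 15 named Mrps. The GENCODE annotation held 78 protein-coding genes that fit the rule, and the other 24, among them Mrpl12, Mrps5, Mrps18a and Mrps18b, were not analysed here.

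The libraries came from mice aged 2 months, 5 of genotype Rragc+/+ and 4 of genotype RragcS74N/+. The RragcS74N/+ mice carry, in every cell, 1 Rragc allele edited with CRISPR to encode an activating substitution in RagC and 1 wild-type allele. RagC belongs to the Rag GTPases, through which amino acid supply reaches the kinase complex mTORC1. The cells were sorted as CD45+, CD11b+ and Ly6G+, and the labels give neither sex nor batch. Nothing in the labels names a treatment.

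Mitochondria carry their own ribosome, the mitoribosome, which translates the few mRNAs encoded by mitochondrial DNA, all of them for subunits of the respiratory chain and ATP synthase. Its RNAs are made in the mitochondrion, but its proteins are encoded in the nucleus, made in the cytosol and imported. Proteins named MRPL sit mostly in the large subunit, which joins amino acids, and those named MRPS mostly in the small subunit, which reads the mRNA. Neutrophils are known to hold few mitochondria and to rely largely on glycolysis, and protein synthesis is among the processes that mTORC1 promotes.

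The sorted cells carried the transcripts of their label. Ly6g, which encodes the sorting antigen, had a mean of 2639 ± 396 normalized counts in the Rragc+/+ libraries (SD, n = 5) and of 2798 ± 891 in the RragcS74N/+ libraries (SD, n = 4). The 11 mature neutrophil markers were all listed and summed to between 129173 and 189245 normalized counts in Rragc+/+ and between 123416 and 209857 in RragcS74N/+. The 8 listed erythroid markers summed to between 1104 and 5644 in Rragc+/+ and between 386 and 2171 in RragcS74N/+. Rragc itself measured 71.0 ± 10.3 (SD, n = 5) and 65.8 ± 9.52 (SD, n = 4), and gene-level counts do not tell its alleles apart. In such bulk samples, fewer cells of a type and less RNA per cell cannot be told apart.

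Promoter sequences of the members were searched because the ETS factor GABP, the factor NRF1 and YY1 are known regulators of genes for mitochondrial proteins. The RefSeq table (GRCm38.p6, from 250 bases before to 50 bases after each start) held 54 promoters for 48 of the 54 members. The ETS letters CCGGAAG, on either strand, were in 20 of the 54 member promoters, or 37.04%, against 8.858% of the 32851 promoters in the table and 20.48% of the 7285 promoters of genes listed in these data. The NRF1 letters GCATGCGC were in 7, or 12.96%, against 2.712% of all promoters and 5.463% of those of listed genes. The YY1 letters AAGATGGCG were in 4, or 7.407%, against 1.403% and 3.569%. TATAAA was in 3, or 5.556%, against 13.62% and 7.042%. The ETS and YY1 letters can share the bases AAG, and a match is a description of the window, not evidence of binding.

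Windows of 80 bases around the ETS letters are shown for 5 members that the values below turn on: Mrpl33, the most abundant, Mrps18c, the most variable of the small-subunit genes that averaged 100 or more, and Mrps12, Mrps23 and Mrpl34, which are described by library below. Mrpl28, described with them, had none of these ETS letters in its window and is not shown. Each is written 5′ to 3′ on the strand of its gene, with the ETS letters or their reverse complement CTTCCGG in capitals, and in Mrpl33 also the NRF1 letters in reverse complement, GCGCATGC. On GRCm38.p6 the Mrpl33 window is chr5:31613878-31613957 (plus strand), that of Mrps18c chr5:100798566-100798645 (plus strand), that of Mrps12 chr7:28741811-28741890 (minus strand), that of Mrps23 chr11:88204333-88204412 (plus strand) and that of Mrpl34 chr8:71464846-71464925 (plus strand). All lie inside the searched promoters. Those of Mrpl33, Mrps12 and Mrps23 run past the RefSeq start, to offsets of 6, 10 and 24 bases. The ETS letters of Mrps12, at offsets 1 to 7, and of Mrps23, at offsets 15 to 21, lie after the start.
Mrpl33: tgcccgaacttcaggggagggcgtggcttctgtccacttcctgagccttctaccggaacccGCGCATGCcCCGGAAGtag
Mrps18c: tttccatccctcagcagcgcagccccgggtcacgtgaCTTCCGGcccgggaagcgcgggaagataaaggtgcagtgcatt
Mrps12: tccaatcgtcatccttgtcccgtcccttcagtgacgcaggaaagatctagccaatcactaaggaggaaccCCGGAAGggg
Mrps23: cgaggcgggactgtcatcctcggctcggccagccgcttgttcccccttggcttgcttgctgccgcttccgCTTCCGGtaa
Mrpl34: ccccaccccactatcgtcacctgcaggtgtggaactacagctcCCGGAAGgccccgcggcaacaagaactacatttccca

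Levels are given in normalized counts, that is, gene read counts divided by 1 size factor per library. Because the libraries read transcript 3′ ends, a count does not grow with transcript length, so levels were set side by side without a length correction. Most members were scarce. Their means over the 9 libraries ran from 8.02 (Mrpl2) to 1932 (Mrpl33). The median was 22.6 over all 54 members, against 47.1 over all 7197 listed genes. Of the 54 members, 9 had a mean of at least 100, 19 of at least 50, and 23 a mean under 20. The members together made up between 0.30% and 0.45% of a library's normalized counts.

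Mrpl33 encodes a small protein of the large subunit with a bacterial homologue. It measured 1762, 1406, 1465, 1482 and 2402 normalized counts in Rragc+/+ replicates 1 to 5 and 1666, 2474, 1515 and 3221 in RragcS74N/+ replicates 1 to 4. This 1 gene supplied between 32.2% and 47.6% of the summed level of all 54 members. The next most abundant were 2 small-subunit genes, Mrps21, homologue of bacterial S21, with a mean of 329.6 and Mrps18c, 1 of the 3 mitochondrial paralogues of bacterial S18, with a mean of 281.2. Mrpl20, homologue of bacterial L20, and Mrps33, a mitochondria-specific protein of the small subunit, followed at 180.3 and 140.3. The spread between libraries was wider than the gap between several of these neighbours, as Mrps18c alone ran from 186 to 554.

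**Figure D1:**
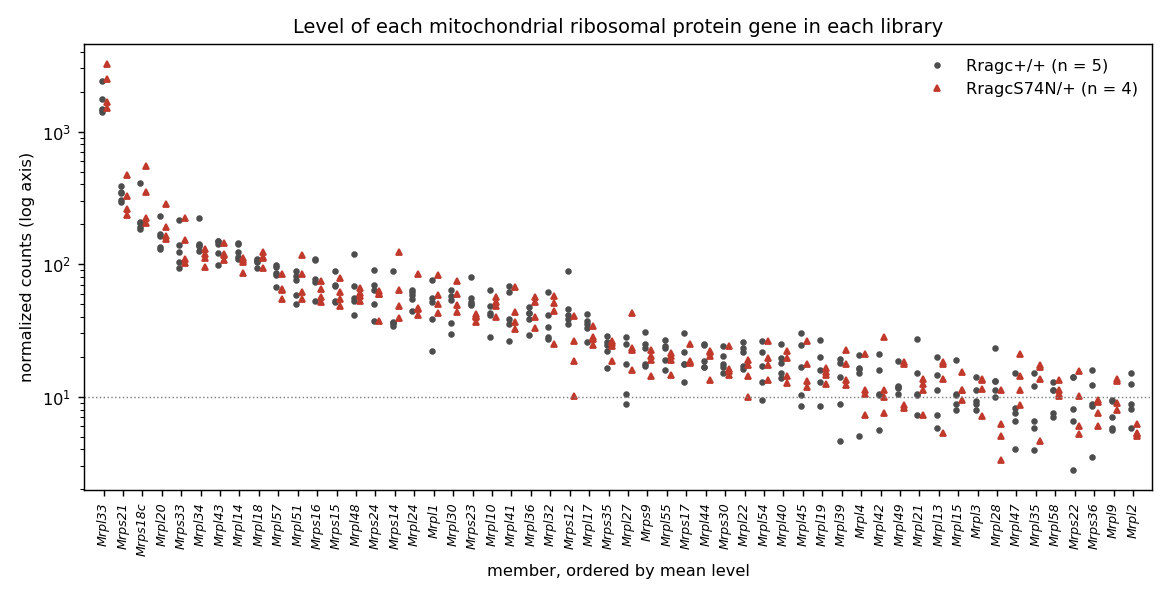
Normalized counts on a log axis of each of the 54 members in each library, ordered by mean level, with Rragc+/+ libraries (n = 5) as circles and RragcS74N/+ libraries (n = 4) as triangles; the dotted line is the mean of 10 below which genes were not tested. Mrpl33 lies far above the rest, and the 2 genotypes overlap for nearly every gene.

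The 4 listed members Mrpl2, Mrpl9, Mrps22 and Mrps36 had means under 10 and were not tested. Mrps36, which despite its name is known as a subunit of the 2-oxoglutarate dehydrogenase complex, averaged 9.83 ± 4.66 normalized counts over the Rragc+/+ libraries (SD, n = 5) and 8.01 ± 1.60 over the RragcS74N/+ libraries (SD, n = 4).

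Whether the activating Rragc allele went with a different level of these genes was asked with limma on log2(value + 1), over all 6673 genes with a mean of at least 10. The members showed no common shift. Of the 50 tested, 25 were higher and 25 lower in RragcS74N/+, with a median log2 difference (RragcS74N/+ minus Rragc+/+) of 0.002, against 0.02 over all genes tested, of which 46.6% were lower. No member had an adjusted p-value under 0.05 in limma, edgeR or DESeq2. In limma 0% of all genes passed that threshold, and the smallest adjusted p-value among members and among all genes was 0.713.

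At an unadjusted p-value under 0.05 in limma there were 3 members of 50, Mrps12, Mrpl28 and Mrps23, each lower in RragcS74N/+. Over all genes tested that share was 5.81%, with 3.81% lower and 2.01% higher. The members' share is near this background. edgeR on the recovered reads gave 4 members, against 6.89% of all genes, and DESeq2 gave 4, against 6.71%, in both cases the same 3 and Mrpl34. The 95% interval of the difference lay within 1 log2 unit on either side of 0 for 39 of the 50 members, and the standard error ran from 0.16 to 0.44 with a median of 0.26.

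**Figure D2:**
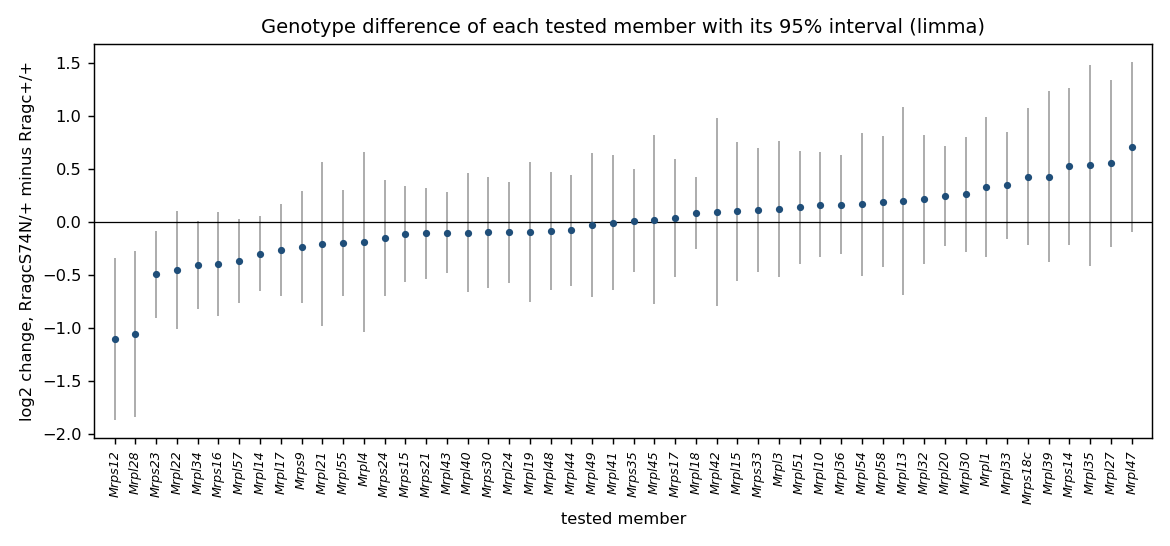
Log2 difference between genotypes (RragcS74N/+ minus Rragc+/+) of each of the 50 tested members on the log2(value + 1) scale, ordered by size, with bars for the 95% interval from limma (n = 5 and n = 4). The points run from -1.11 for Mrps12 to 0.71 for Mrpl47, and the interval misses 0 for Mrps12, Mrpl28 and Mrps23.

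Mrps12 encodes the homologue of bacterial S12, which lines the decoding site where the small subunit checks codon against tRNA. It measured 35.6, 88.8, 38.4, 45.8 and 41.1 normalized counts in Rragc+/+ replicates 1 to 5 and 18.6, 10.2, 40.7 and 26.1 in RragcS74N/+ replicates 1 to 4. The genotypes overlapped through RragcS74N/+ replicate 3, and Rragc+/+ replicate 2 stood far above the rest. Its means were 49.9 ± 22.05 (SD, n = 5) and 23.9 ± 12.95 (SD, n = 4). The log2 difference was -1.11 (SE 0.36, 95% interval -1.87 to -0.34), with an unadjusted limma p of 0.0079 and an adjusted one of 0.713. Without Rragc+/+ replicate 2 the difference was -0.88 with an unadjusted limma p of 0.0171.

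Mrps23, a mitochondria-specific protein of the small subunit, was the 1 member whose genotypes did not overlap in any library, against 1.69% of all genes tested. It measured 50.1, 80.6, 55.3, 52.3 and 49.1 in Rragc+/+ and 41.8, 36.6, 39.9 and 40.8 in RragcS74N/+. The gap between the lowest Rragc+/+ and the highest RragcS74N/+ library was small beside the spread within Rragc+/+. Its means were 57.5 ± 13.2 (SD, n = 5) and 39.8 ± 2.24 (SD, n = 4), with a log2 difference of -0.50 (SE 0.19, 95% interval -0.91 to -0.08) and an adjusted limma p of 0.713. The unadjusted limma p of 0.0217 became 0.0491 without Rragc+/+ replicate 2 and 0.0572 without RragcS74N/+ replicate 2.

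Mrpl28, homologue of bacterial L28 in the large subunit, was scarce, with between 5 and 20 recovered reads per library. It measured 9.88, 23.4, 13.1, 11.3 and 13.03 in Rragc+/+ and 3.32, 5.08, 11.3 and 6.27 in RragcS74N/+. RragcS74N/+ replicate 3 lay among the Rragc+/+ libraries. The log2 difference was -1.06 (SE 0.37), with an adjusted limma p of 0.713.

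By p-value, the next 3 members lower in RragcS74N/+ were Mrpl34, Mrpl57 and Mrpl14. None passed even the unadjusted threshold in the limma fit described above. Mrpl34, homologue of bacterial L34, measured 142, 224, 140, 126 and 136 in Rragc+/+ and 130, 95.6, 111 and 119 in RragcS74N/+, and only Rragc+/+ replicate 4 lay below the highest RragcS74N/+ library. Its log2 difference was -0.41 (SE 0.19), and it was -0.26 without Rragc+/+ replicate 2, a change of more than 1.5 times. Mrpl57, a small mitochondria-specific protein of the large subunit, measured 86.1 ± 12.2 (SD, n = 5) and 66.7 ± 12.2 (SD, n = 4), a log2 difference of -0.37. Mrpl14, homologue of bacterial L14 at the face between the subunits, measured 126.6 ± 15.7 (SD, n = 5) and 102.5 ± 11.2 (SD, n = 4), a log2 difference of -0.30. The adjusted limma p was 0.713 for all 3.

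The content of G and C bases in the last 500 nucleotides of the transcripts was 57.2% for Mrpl34, 59.0% for Mrpl28, 56.0% for Mrpl14, 55.0% for Mrps12 and 51.6% for Mrps23. The median over all 54 members was 46.7%, while Mrpl57 had 37.0%. With each library's trend on this content removed, the log2 difference was -0.06 for Mrpl14, -0.13 for Mrpl34, -0.74 for Mrpl28, -0.90 for Mrps12, -0.39 for Mrps23 and -0.54 for Mrpl57. The differences of Mrpl14 and Mrpl34 thus shrank by more than 1.5 times. That of Mrpl57 grew, with an unadjusted limma p of 0.017.

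Among members higher in RragcS74N/+, the smallest p-values belonged to Mrpl47, Mrps14, Mrpl27, Mrpl33, Mrps18c and Mrpl35, and none was under 0.05. Mrpl47, homologue of bacterial L29 in the large subunit, measured 8.26 ± 4.10 (SD, n = 5) and 13.8 ± 5.28 (SD, n = 4), a log2 difference of 0.71 (SE 0.37) with an adjusted limma p of 0.713. Mrpl27, homologue of bacterial L27 next to the peptidyl transferase centre, differed by 0.55, and Mrpl35, homologue of L35, by 0.53. For Mrpl33 the log2 difference was 0.34 (SE 0.24, 95% interval -0.16 to 0.85), with an adjusted limma p of 0.724. It was 0.14 without RragcS74N/+ replicate 4 and 0.48 without Rragc+/+ replicate 5.

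Mrps14, homologue of bacterial S14, and Mrps18c had the same few libraries on top as Mrpl33. Mrps14 measured 34.2, 36.2, 36.6, 36.2 and 89.2 in Rragc+/+ and 39.1, 64.0, 48.2 and 124.4 in RragcS74N/+. Mrps18c measured 203, 186, 191, 209 and 409 in Rragc+/+ and 204, 352, 224 and 554 in RragcS74N/+. For both genes 4 of the Rragc+/+ libraries lay close together, while the fifth lay above 3 of the 4 RragcS74N/+ libraries. The log2 differences were 0.53 (SE 0.34) for Mrps14 and 0.43 (SE 0.30) for Mrps18c. They were 0.78 and 0.64 without Rragc+/+ replicate 5, and 0.20 and 0.14 without RragcS74N/+ replicate 4, so that RragcS74N/+ replicate 4 alone moved both by more than 1.5 times.

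**Figure D3:**
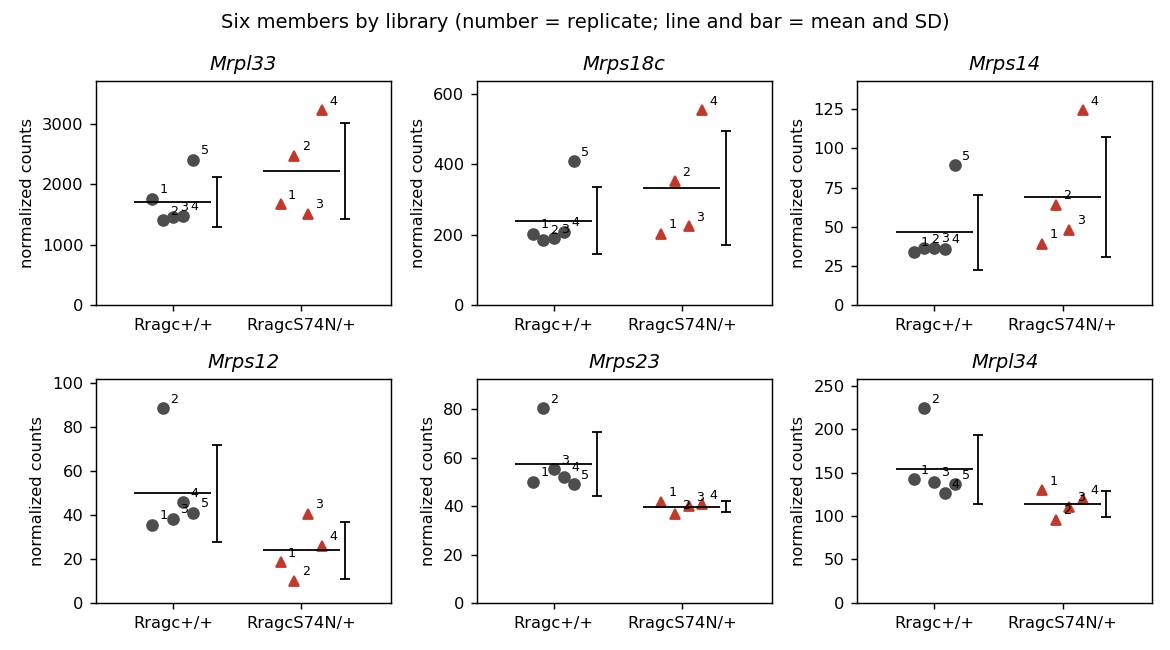
Normalized counts of 6 members in each library, with the replicate number beside each point and the mean and SD of each genotype as a line and a bar (n = 5 and n = 4). For Mrpl33, Mrps18c and Mrps14 the same 3 libraries, Rragc+/+ 5, RragcS74N/+ 2 and RragcS74N/+ 4, are highest, while for Mrps12, Mrps23 and Mrpl34 the highest is Rragc+/+ 2.

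By place in the ribosome, no group of members stood apart in its count. Of the members named Mrpl, 20 of 37 were higher with a median log2 difference of 0.08, and of those named Mrps, 8 of 13 were lower with a median of -0.11. The stalk, where translation factors dock, was represented by Mrpl10 alone, at 0.16. Of the 4 tested members in the peptidyl transferase region and conserved core, 3 were higher, with a median of 0.14. Of the 3 tested members placed at the exit of the nascent chain tunnel, 2 were lower. The median of the 3 was -0.10, and Mrpl24, among the lower, was at -0.10. Mrpl45, which contacts the inner membrane at the tunnel exit, measured 18.1 ± 9.19 (SD, n = 5) and 17.3 ± 6.53 (SD, n = 4). The list for the tunnel exit held the L29 homologue as Mrpl29, a symbol that no member carries. It thus left out Mrpl47, which was higher, at 0.71.

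With Mrpl47 counted among them, 10 of the 16 other tested large-subunit members with a bacterial homologue were higher (median 0.15), and 5 of the 14 mitochondria-specific ones (median -0.05). The list as first written held Mrpl47 as mitochondria-specific, which gave 9 of 15 (median 0.10) and 6 of 15 (median -0.03). In the small subunit, 6 of the 9 members with a bacterial homologue were lower (median -0.11), and 1 of the 3 mitochondria-specific ones (median 0.01). Mrpl44, which has a fold like RNase III, measured 20.4 ± 4.04 (SD, n = 5) and 19.3 ± 4.12 (SD, n = 4). Mrpl58, a peptidyl-tRNA hydrolase that frees stalled ribosomes, measured 9.96 ± 2.56 (SD, n = 5) and 11.3 ± 1.40 (SD, n = 4). For Mrps21 the means were 336 ± 38.3 (SD, n = 5) and 321 ± 104 (SD, n = 4), for Mrps33 135 ± 47.5 and 147 ± 56.2, and for Mrpl20 165.7 ± 39.3 and 198.7 ± 59.7, with log2 differences of -0.11, 0.11 and 0.25.

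The members differed widely in how much they varied between libraries. Within genotype, the coefficient of variation ran from 8.67% for Mrpl18, homologue of bacterial L18, to 57.1% for Mrpl42, a mitochondria-specific protein of the large subunit, with a median of 28.2%. Mrpl18 measured 104.0 ± 6.29 (SD, n = 5) and 110.6 ± 12.2 (SD, n = 4). Its variation did not exceed the 9.14% that counting alone would give. For 31 of the 50 tested members the variation was over 1.5 times that of counting, and for 19 over 2 times. Among members with a mean of at least 50, Mrps14 varied most, at 54.8% against 12.6% from counting.

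Libraries of the same genotype differed over many members together. For 11 of the 50 tested members (22%), the 3 highest libraries were Rragc+/+ 5, RragcS74N/+ 2 and RragcS74N/+ 4, which held for 5.99% of all genes tested. These members were Mrpl1, Mrpl13, Mrpl20, Mrpl32, Mrpl33, Mrpl35, Mrpl36, Mrpl47, Mrps14, Mrps18c and Mrps33. The same 3 libraries were highest for 36.2% of the 80 tested cytosolic ribosomal protein genes and 29.7% of the 74 nuclear genes of respiratory chain and ATP synthase subunits, so the pattern was not particular to the mitoribosome. The set of libraries was chosen after these values were seen.

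Library by library, Rragc+/+ 5 was among the 3 highest for 31 of the 50 tested members (62%, against 33.7% of all genes), and RragcS74N/+ 4 for 25 (50%, against 35.8%). RragcS74N/+ 1 was among the 3 highest for 3 members (6%, against 35.9%) and among the 3 lowest for 31 (62%, against 35.1%). Rragc+/+ 2 was the highest library for 14 members, Mrps12, Mrps23, Mrpl28 and Mrpl34 among them, which at 28% was near its 25.9% over all genes. RragcS74N/+ 4 was highest for 14 others (28%, against 15.0%). The libraries of 1 genotype therefore stood at both ends of the range.

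**Figure D4:**
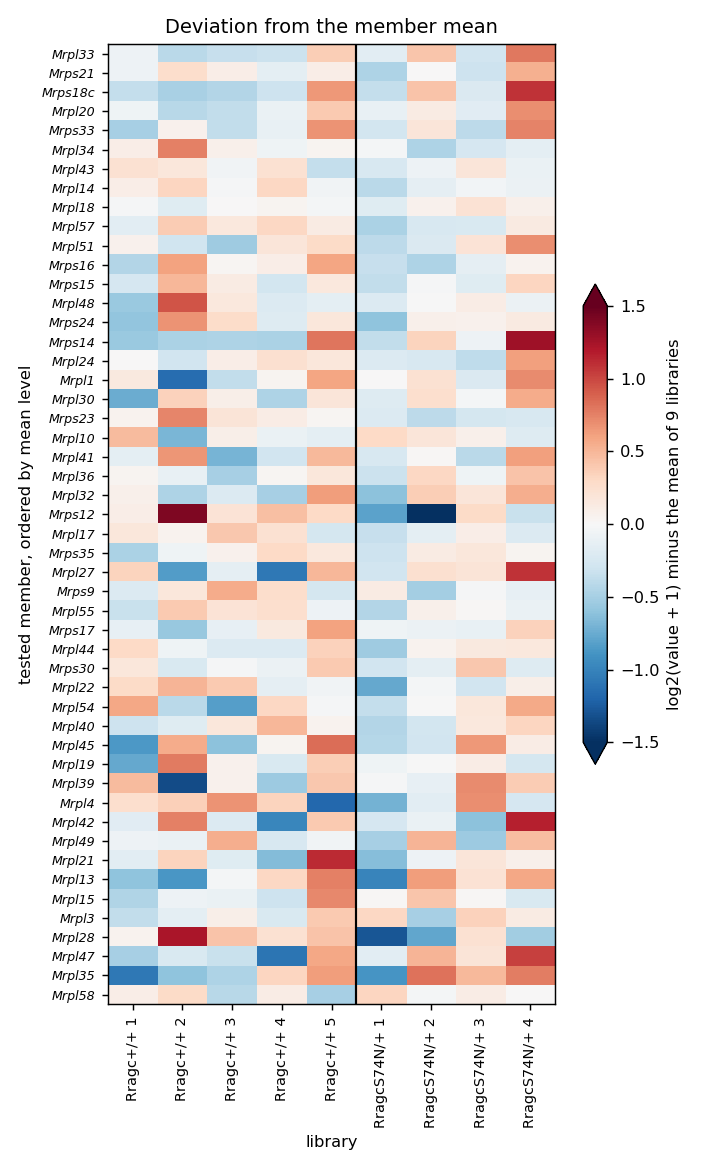
Heat map of log2(value + 1) minus its mean over the 9 libraries, for the 50 tested members in rows ordered by mean level and the libraries in columns, with a line between the genotypes; colours saturate at 1.5. Rragc+/+ 5 and RragcS74N/+ 4 are mostly red (higher), with median deviations of 0.29 and 0.15, and RragcS74N/+ 1 mostly blue (lower), with a median of -0.32.

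Summed over all 54 members, the level was 4237, 4364, 4008, 4063 and 5628 normalized counts in Rragc+/+ replicates 1 to 5 and 3825, 5193, 4038 and 6852 in RragcS74N/+ replicates 1 to 4. The highest and the lowest sums were both in RragcS74N/+ libraries. The means were 4460 ± 668 (SD, n = 5) and 4977 ± 1387 (SD, n = 4), a difference smaller than either SD. That difference was -108 without RragcS74N/+ replicate 4 and 901 without RragcS74N/+ replicate 1. Without Mrpl33 the sums were 2757 ± 322 (SD, n = 5) and 2758 ± 627 (SD, n = 4). Split by name alone, the Mrpl genes summed to 3278 ± 484 and 3768 ± 1000, and the Mrps genes, among them Mrps30 of the large subunit and Mrps36, to 1182 ± 227 and 1209 ± 392.3.

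**Figure D5:**
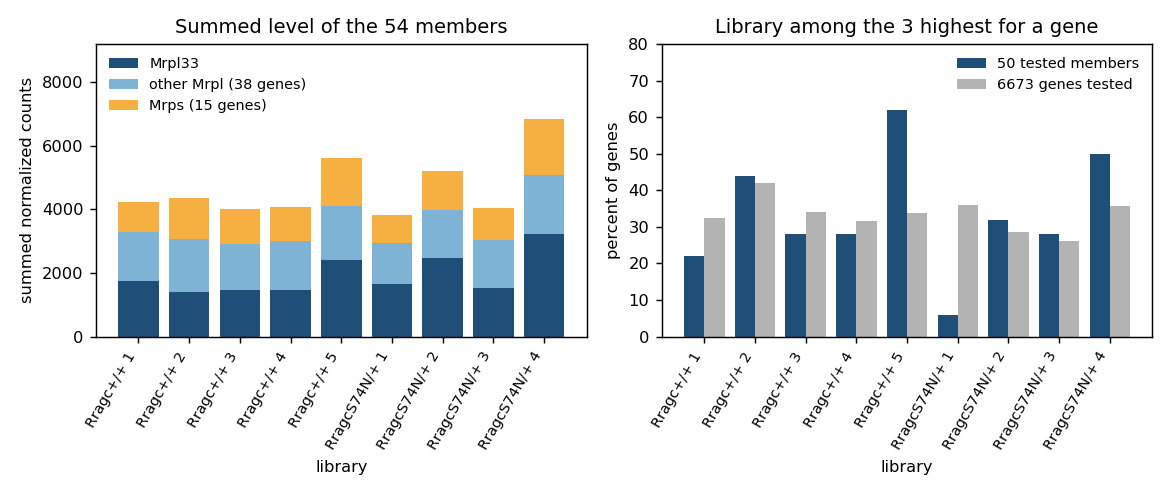
Left, summed normalized counts of the members in each library, split into Mrpl33, the other 38 Mrpl genes and the 15 Mrps genes; right, percent of the 50 tested members and of the 6673 genes tested for which each library was among the 3 highest. The sum runs from 3825 in RragcS74N/+ 1 to 6852 in RragcS74N/+ 4, and in RragcS74N/+ 1 the members' bar (6%) lies far below that of all genes (35.9%).

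Several other measures were high in the same libraries. S100a9, a calcium-binding protein gene of mature neutrophils, took 3.82%, 4.49%, 4.51%, 4.11% and 5.66% of the normalized counts in Rragc+/+ replicates 1 to 5 and 3.95%, 5.81%, 4.31% and 5.71% in RragcS74N/+ replicates 1 to 4. The 18 cell cycle markers, all listed, summed to 6092 in Rragc+/+ 5 and 6178 in RragcS74N/+ 4. The sums were 3172 to 3990 in the other Rragc+/+ libraries and 2888, 4422 and 4288 in RragcS74N/+ 1, 2 and 3. Not every marker followed the sum. Mki67 measured 89.2 in Rragc+/+ 5 and 40.8 to 87.6 in the other Rragc+/+ libraries. In RragcS74N/+ 1, 2, 3 and 4 it measured 51.7, 41.7, 64.0 and 62.7. The 6 listed of 9 eosinophil and basophil markers summed to 452 in Rragc+/+ 5, 521 in RragcS74N/+ 2 and 632 in RragcS74N/+ 4, against at most 217 in the remaining libraries. The secondary granule markers ran from 25560 to 33577 in Rragc+/+ and from 21646 to 34904 in RragcS74N/+, and the 4 listed of 8 monocyte markers from 2338 to 3563 and from 2338 to 4174. Of B cell markers 2 of 8 were listed, summing to at most 146 in any library, and of T and NK cell markers 1 of 8, at most 28.9. The part of these cell types in the members' levels was not tested.

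Base composition also moved with the library. Across the 50 tested members, the correlation of 3′ G and C content with a library's deviation was 0.26, 0.49, 0.24 and 0.25 in Rragc+/+ replicates 1 to 4 and -0.39 in replicate 5, and -0.21, -0.39, -0.13 and -0.32 in RragcS74N/+ replicates 1 to 4. These values describe genes that share libraries, and genes are not independent replicates. Over all genes the corresponding values ran from -0.34 to 0.35. The 11 members named above had a median G and C content of 44.0%, against 47.0% for the others. With the trend removed, 9 of the 11 and no other member (18% of 50) had those 3 libraries on top, against 5.09% of all genes, 43.8% of the cytosolic ribosomal protein genes and 38% of the respiratory chain and ATP synthase genes.

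The rest of the mitochondrial expression machinery was described from lists. The list of mitoribosomal proteins with other names held 7 symbols, among them Ict1 and Mrp63, earlier symbols of the members Mrpl58 and Mrpl57. Of the 7 symbols 4 were among the listed genes, with log2 differences between -0.09 and 0.50 and no unadjusted limma p under 0.05. Dap3, a GTP-binding protein of the small subunit, measured 27.8 ± 5.44 (SD, n = 5) and 27.5 ± 5.19 (SD, n = 4). Chchd1, in the small subunit as well, differed by 0.50 and Aurkaip1 by -0.09. Of 34 assembly factors 10 were listed and 8 tested, with 0 under an unadjusted p of 0.05. The smallest p-values there belonged to Mpv17l2 (-0.73) and Mterf4 (0.32). Of 18 translation factors 6 were listed and 5 tested, again with 0. Slirp, which stabilises mitochondrial mRNAs, differed by 0.66 (SE 0.35) and Mtif3, an initiation factor, by -0.49 (SE 0.27).

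Of 21 genes for mitochondrial RNA and DNA synthesis 9 were listed and 8 tested, and 1, Polg, had an unadjusted limma p under 0.05, against 5.81% of all genes. Polg, the mitochondrial DNA polymerase, measured 30.3, 17.5, 16.9, 26.5 and 23.1 in Rragc+/+ and 35.1, 35.6, 33.1 and 31.4 in RragcS74N/+. No library of 1 genotype reached those of the other, as for 1.69% of all genes. Its log2 difference was 0.58 (SE 0.22), with an adjusted limma p of 0.713. Mterf1a, named for termination of mitochondrial transcription, differed by -0.80 (SE 0.38), with an unadjusted limma p of 0.055. Its unadjusted p was 0.028 in edgeR and 0.018 in DESeq2, with adjusted values of 0.683 and 0.737. Its highest library was Rragc+/+ 2, at 71.3 against at most 41.2 in any other. Tfam, which packages mitochondrial DNA and starts its transcription, differed by -0.11 (SE 0.27). The list of aminoacyl-tRNA synthetases held 24 symbols, with Gars and Kars each under an old and a new symbol. It also held Qrsl1, Gatb and Gatc, which encode amidotransferase subunits. Of the 24 symbols 3 were among the listed genes, with Hars2 at -0.28 and Iars2 at 0.56.

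The mRNAs that the mitoribosome translates showed no called difference. Of the 13, 7 were listed, and all 7 had a higher mean log2 value in RragcS74N/+, with a median difference of 0.24 and 0 under an unadjusted limma p of 0.05. Their sum was 11828, 12774, 13784, 11114 and 18559 normalized counts in Rragc+/+ and 9614, 17874, 13262 and 22445 in RragcS74N/+, again with Rragc+/+ 5, RragcS74N/+ 2 and RragcS74N/+ 4 on top. mt-Nd5, a subunit of complex I, differed by 0.29 (SE 0.25). The RNAs of the mitoribosome itself, chosen after their values were seen, differed by 0.11 (mt-Rnr1) and 0.18 (mt-Rnr2). With the 3′ G and C trend removed, the median of the 7 mRNAs was 0.067, mt-Nd5 was at 0.10, mt-Rnr1 at -0.078 and mt-Rnr2 at -0.00077, so the direction of both ribosomal RNAs turned.

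Among known regulators of genes for mitochondrial proteins, 7 of 11 were listed, and 0 had an unadjusted limma p under 0.05. Nrf1 measured 36.8 ± 5.86 (SD, n = 5) and 37.7 ± 8.26 (SD, n = 4), a log2 difference of 0.02 (SE 0.21). Gabpa, the DNA-binding subunit of GABP, differed by 0.21 (SE 0.25), and its partners Gabpb1 and Gabpb2 by -0.25 and 0.31. With the trend removed, these were 0.0091, -0.38 and 0.13. For comparison, 6 of the 80 tested cytosolic ribosomal protein genes had an unadjusted limma p under 0.05, all lower, with a list median of 0.03. That is 7.5%, against 5.81% of all genes in either direction and 3.81% in the lower direction. Of the 74 respiratory chain and ATP synthase genes 0 did, with a list median of 0.01.

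The 5 members Mrpl3, Mrpl33, Mrpl51, Mrps18c and Mrps24 share exon sequence on the same strand with another annotated gene in GENCODE, Gm43809 in the case of Mrpl33 and Gm43511 in that of Mrps18c, so the counts of these members depend on how shared reads were assigned. The alignment allowed reads with several hits, and how such reads were counted is not given. Whether reads shared with processed pseudogenes were left out of a member's count or added to it cannot be told here.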

How the data were processed

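Polyadenylated RNA of sorted bone marrow neutrophils was read as 3′-end libraries. The authors used TopHat2 on GRCm39 and HTSeq, by strand, with GENCODE genes. The deposited values are a signal, namely read counts of genes over a size factor of the library set by the authors. Collapsing of reads by molecular identifier and the filter behind the gene list are not given in the sources used here.

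All values were whole multiples of 1 read (100% of values, tolerance 0.01), which gave 1214295 to 1973957 recovered reads per library over the listed genes. Intervals and coefficients from counting cover counting error only. All listed genes had reads in at least 7 libraries. No library was a duplicate of another of its genotype. Over 16 pairs of 1 genotype the lowest chi-square, divided by its degrees of freedom, was 5.47. Pairs across the genotypes were not compared. GEO's labels gave the genotypes (0 columns without a sample), and replicates were numbered in accession order. That they came from separate mice is not stated per library, so p-values measure the spread between these samples. The study's text describes more RragcS74N/+ mice than the 4 analysed here.

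Values were compared as log2(value + 1), which understates differences of scarce genes, with limma (version 3.58.1, R 4.3.3, trended moderation, genotype as the one term) on genes averaging at least 10, with Benjamini-Hochberg adjustment over all of them and a threshold of 0.05. Alternatives were edgeR (version 4.0.16, quasi-likelihood) and DESeq2 (version 1.42.0) on recovered reads, other pseudocounts, filters, scalings and weights, and removal of 3′ GC trends or single libraries. The procedure was tested on simulated data. GC content and overlaps came from GENCODE on GRCm38, matched by symbol (7067 of 7197 genes, all 54 members). Named members were those without overlap, the 6 with the smallest p in each direction, the 5 most and 3 least abundant, the most and least variable with a mean of at least 50, and some fixed by function (Mrpl44, Mrpl45, Mrpl58, Mrps12, Mrps18c, Mrps36). The members and lists were chosen with earlier results of these data known. Lists of primary granule (6) and platelet (4) markers had 0 listed genes.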

Additional observations from a re-analysis of the deposited data

Results flagged for a closer look

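There were 8 values that lay apart from the other libraries of their genotype by Dixon's criterion at the 95% level, of 92 groups examined, where chance gives about 4.6. All were in Rragc+/+, and in 2 libraries. In Rragc+/+ 2, Mrps12 measured 88.8, Mrps23 80.6, Mrpl34 224 and Mrpl28 23.4 normalized counts, in each case above the rest, and these are 4 of the members with the lowest p-values for a lower level in RragcS74N/+. Without that library the log2 differences were -0.88 for Mrps12, -0.37 for Mrps23, -0.26 for Mrpl34 and -0.87 for Mrpl28. In Rragc+/+ 5, Mrps14 measured 89.2, Mrps18c 409, the sum over all members 5628, and Rpl22l1, a cytosolic ribosomal protein paralogue, 170 normalized counts, each again above the rest of its genotype. RragcS74N/+ 4 had higher values than Rragc+/+ 5 for Mrps14 (124.4), Mrps18c (554) and the sum (6852).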

How the results depend on the processing

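No member was called by limma, edgeR or DESeq2 under any of the 21 alternatives, and 14 of the 19 named members with a test kept their direction in all. The 388 genes and 3 members with an unadjusted limma p under 0.05, the 1 member (Mrps23) without overlap and the 25 lower members became 191, 0, 0 and 10 with a mean of at least 50, which leaves fewer genes to test. Array quality weights gave 769 genes and 7 members. Removal of the 3′ GC trend gave 269 of 6556 genes and 5 members, the added ones being Mrpl57 and Mrps16. With TMM scaling, 2 members (Mrpl34 and Mrps23) and 118 genes had no overlap. Leaving out 1 library gave 201 genes (without Rragc+/+ 2) to 914 (without Rragc+/+ 5), 2 to 6 members with a low p, 18 to 31 lower members, 1 to 4 without overlap (against 1.93% to 6.29% of all genes) and a sum difference of -108 to 901. Without the 3 libraries with the highest S100a9 share, an alternative chosen after the data were seen that leaves 4 against 2, there were 1 member with a low p (Mrpl22) and 10 without overlap, against 14.4% of all genes. Near-zero differences changed sign: Mrpl44 to 0.086 with weights, Mrpl45 to -0.027 in edgeR, -0.030 in DESeq2 and -0.055 with GC removed, Mrpl18 to -0.040 with GC removed, and Mrps33 to -0.11 without those 3 libraries. Over single libraries left out, Mrpl44 ran from -0.14 to 0.085, Mrpl45 from -0.19 to 0.23, Mrps21 from -0.31 to 0.026 and Mrps33 from -0.12 to 0.29. The cause was not tested. No paired analysis was possible because replicate numbers are absent from the labels. The standard error of the tested members ran from 0.16 to 0.44, which limits the differences that could be seen.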
